A study of Mus musculus with 9 samples.

Results

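Transcript levels of 6 genes of the sodium pump were followed through myoblast differentiation: the beta subunits Atp1b1, Atp1b2 and Atp1b3 and the FXYD regulators Fxyd1, Fxyd5 and Fxyd6. They were taken by symbol from a table of 47729 genes, of which 13324 had enough reads to be tested, and 5 of the 6 were among those. Fxyd6 was chosen because it rose strongly with differentiation, so its day-to-day values are given as a description without a test. Fxyd1 had too few reads to be tested in the main analysis.

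The cells were C2C12, an established line of mouse myoblasts that fuse into myotubes when serum is reduced. Poly(A)-selected RNA was sequenced from 3 cell populations: a control that received a non-target guide RNA (called WT by the labels), a population with a CRISPR-Cas9 knockout of the clock gene Per1 (Per1KO) and one with a knockout of Per2 (Per2KO). Sampling took place in growth medium with fetal bovine serum (day 0) and again 3 and 5 days after the switch to horse serum, which gives 9 libraries with 1 library for each genotype and day. The labels do not say whether a knockout population is 1 clone or a pool, and they name whole muscle as the tissue although the growth protocol describes cultured cells.

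The sodium pump (Na,K-ATPase) exports sodium and imports potassium at the cost of ATP, and in muscle it restores the ion gradients that each action potential uses. Its alpha subunit binds the ions and hydrolyses ATP. The beta subunit is a glycoprotein that the alpha subunit needs to fold, leave the endoplasmic reticulum and reach the plasma membrane. FXYD proteins are small membrane proteins that associate with the pump and tune its affinity for ions and its rate. In adult skeletal muscle Fxyd1 (phospholemman) is the regulator best known.

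The promoter windows of Fxyd6, Fxyd5 and Atp1b1 are printed here to show which of the searched motifs their letters hold. They were picked, with the values known, among the members that have a window, because their ratios between knockout and WT differed between days. Each window holds the 250 bases before and the 50 bases after a transcript start in RefSeq, assembly GRCm38.p6, and is written 5′ to 3′ on the strand of the gene. Capitals mark matches, on either strand, to CANNTG (the E-box bound by MyoD and other basic helix-loop-helix factors, which includes the CACGTG form bound by CLOCK and BMAL1), GGGCGG (the GC box), CCAAT or the MEF2 motif. The Fxyd6 window is chr9:45369935-45370234 (+ strand), that of Fxyd5 is chr7:31042282-31042581 (- strand) and that of Atp1b1 is chr1:164458306-164458605 (- strand).
Fxyd6: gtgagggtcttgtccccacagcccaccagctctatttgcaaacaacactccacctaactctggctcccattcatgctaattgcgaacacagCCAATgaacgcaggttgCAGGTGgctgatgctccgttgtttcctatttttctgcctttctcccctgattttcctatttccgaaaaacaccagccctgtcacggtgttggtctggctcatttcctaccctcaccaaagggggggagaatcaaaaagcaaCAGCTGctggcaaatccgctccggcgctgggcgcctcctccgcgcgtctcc
Fxyd5: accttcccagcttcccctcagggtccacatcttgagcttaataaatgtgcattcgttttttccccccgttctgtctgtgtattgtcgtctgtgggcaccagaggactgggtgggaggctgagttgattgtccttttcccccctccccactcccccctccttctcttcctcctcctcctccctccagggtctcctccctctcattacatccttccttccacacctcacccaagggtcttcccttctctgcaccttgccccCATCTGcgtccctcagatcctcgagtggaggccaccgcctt
Atp1b1: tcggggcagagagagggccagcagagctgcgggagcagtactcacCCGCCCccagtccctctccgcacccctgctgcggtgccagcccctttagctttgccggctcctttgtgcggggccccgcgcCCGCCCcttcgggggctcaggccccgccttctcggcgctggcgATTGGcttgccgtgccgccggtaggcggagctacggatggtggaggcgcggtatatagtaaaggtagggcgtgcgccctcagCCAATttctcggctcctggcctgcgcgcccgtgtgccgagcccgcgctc
The Fxyd6 window held 2 E-boxes, CAGGTG beginning 142 bases and CAGCTG beginning 1 base before the start, and a CCAAT beginning 159 bases before it. The Fxyd5 window held 1 E-box, CATCTG, beginning at base 10 after the start. The Atp1b1 window held no E-box, but 2 GC boxes on the opposite strand, beginning 205 and 124 bases before the start, and 2 CCAAT matches. Of 32851 mouse promoter windows of this length, 72.3% held a CANNTG, 16.3% a CAGCTG, 7.15% a CACGTG, 35.7% a GGGCGG, 37.4% a CCAAT and 3.19% a MEF2 motif. None of the 3 windows held CACGTG or a MEF2 motif, which says only that these letters are not in these stretches. Of the members whose windows are not printed, Atp1b3 has 2 starts in the table, and the window of the second held a CACGTG beginning 221 bases before that start. Windows were found for 5 of the 6 members; Atp1b2 had none in the table.

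Depth was 5020385 to 6773320 counts for each WT library and 41997763 to 48051824 for each knockout library, and a lane suffix stands in the titles of the WT samples alone. Genotype therefore cannot be told apart from depth or lane in any comparison with WT. Levels are given as CPM, read counts scaled to a common library size (with TMM factors), with exact Clopper-Pearson 95% intervals where given, which cover counting error only. Per1 mRNA was at 20.9, 32.4 and 28.9 CPM in Per1KO on days 0, 3 and 5, against 35.6, 33.8 and 31.01 CPM in WT and 16.5, 30.4 and 32.9 CPM in Per2KO, so it was lower in both knockouts on day 0 and near WT later. Over all days the Per1KO difference was not called (log2 fold change -0.34 ± 0.22, SE; adjusted p = 0.31). Per2 mRNA was lower in Per2KO than in WT (-1.02 ± 0.24, adjusted p = 0.023), but the Per2 difference between the knockouts was not called (0.41 ± 0.23, adjusted p = 1). The targets' mRNA thus does not tell the knockouts apart, and the genotype names are those of the labels. The 8 muscle markers (Myod1, Myog, Des, Myh3, Ckm, Acta1, Tnnt3 and Mymk) were all detected in every library and summed to 1322 to 3236 CPM on day 0 and 12850 to 22078 CPM on day 5. The 16 markers of other cell types summed to between 1.47 and 3.799 CPM, with 7 to 12 of them at 0 counts in each library, and Adgre1, Adipoq, Epcam and Ibsp at 0 in all 9.

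Among the FXYD regulators, Fxyd6 (phosphohippolin, ENSMUSG00000066705, chromosome 9, 45370185 to 45396159, plus strand in the GENCODE annotation of GRCm38) went from near absence to being the most abundant member of its family. In WT it had 1, 85 and 194 reads on days 0, 3 and 5, which is 0.141, 15.5 and 42.7 CPM. Per1KO had 1, 308 and 2128 reads, or 0.0203, 6.38 and 51.1 CPM. Per2KO had 0, 317 and 1556 reads, or 0, 6.56 and 37.9 CPM, and a count of 0 there allows up to 0.0591 CPM (3 counts). All 3 day 0 libraries were at or under 1 read, and their distance from the 6 later libraries is what Fxyd6 was chosen for. With 1 read on day 0, the day 5 to day 0 ratio was 302 in WT (95% interval 53.6 to 11992) and 2521 in Per1KO (452 to 99607). In Per2KO the day 5 level was 642-fold the day 0 floor of 3 counts, and the 95% interval of the ratio began at 521. These ratios and intervals describe the rise that chose Fxyd6 and test nothing.

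The pace of the Fxyd6 rise differed between the libraries by day. Among the day 3 libraries the level in WT was 2.43-fold that in Per1KO (95% interval 1.89 to 3.10) and 2.36-fold that in Per2KO (1.84 to 3.01). The summed muscle markers of the same day 3 libraries were 21132 CPM in WT, 9673 CPM in Per1KO and 9011 CPM in Per2KO, and their part in this difference was not tested. On day 5 the order had changed: Per1KO was at 1.20 times WT (1.03 to 1.40) and Per2KO at 0.888 times WT (0.765 to 1.04). From day 3 to day 5 Fxyd6 rose 2.75-fold in WT (2.12 to 3.59), 8.02-fold in Per1KO (7.11 to 9.06) and 5.78-fold in Per2KO (5.12 to 6.54). These are ratios of single libraries, and their intervals hold no variation between cultures. Over all days, edgeR's quasi-likelihood test called no difference from WT for Fxyd6 (log2 fold change -0.50 ± 0.37, SE, adjusted p = 0.379 in Per1KO; -0.75 ± 0.37, adjusted p = 0.189 in Per2KO). Without the WT day 5 library, however, the Per2KO difference became -1.43 with an adjusted p of 0.0358. Leaving out WT day 3 instead gave -0.12 in Per2KO and 0.10 in Per1KO, neither of them called.

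Fxyd5 (dysadherin, known for weakening cell adhesion as well as for regulating the pump; ENSMUSG00000009687, chromosome 7, 31032722 to 31042481, minus strand) was the leading FXYD gene on day 0 in every population. On day 0 it stood at 8.62 CPM in WT, 10.3 CPM in Per1KO and 10.4 CPM in Per2KO, from 61, 507 and 527 reads. In WT it then stayed near that level, at 10.8 CPM on day 3 and 12.5 CPM on day 5 from 59 and 57 reads. In Per1KO it was at 1.97 CPM on day 3 and 1.27 CPM on day 5, and in Per2KO at 2.53 and 1.46 CPM. The 4 differentiating knockout libraries lay below all 5 others, with intervals that did not reach them.

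Within WT, the day 5 to day 0 ratio of Fxyd5 was 1.46, with an interval of 0.996 to 2.12 that includes no change. The same ratio was 0.124 in Per1KO (0.0915 to 0.165) and 0.141 in Per2KO (0.106 to 0.184). Set against WT of the same day, Per1KO was at 1.19 times WT on day 0 (0.914 to 1.58), 0.183 times on day 3 (0.131 to 0.257) and 0.102 times on day 5 (0.0685 to 0.1503). Per2KO was at 1.20, 0.235 and 0.117 times WT on the same days, so the knockouts and WT did not differ beyond counting error before differentiation and differed 4.26-fold to 9.85-fold after it.

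**Figure D1:**
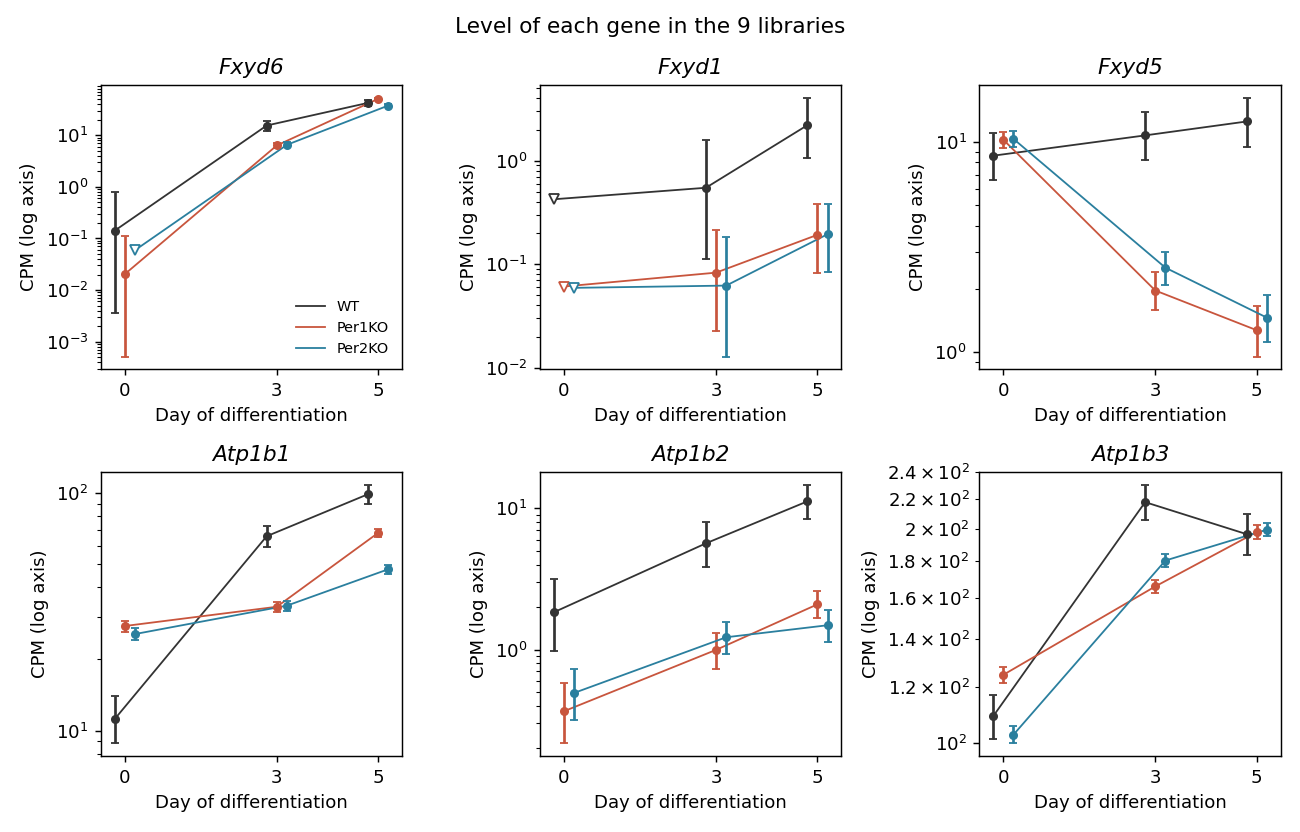
Level in CPM (log axis) of each of the 6 genes against day of differentiation, with 1 point for each library of WT, Per1KO and Per2KO. Bars are exact 95% intervals for counting error and open triangles mark the floor of 3 counts where no read was found. Fxyd6 starts at or under 1 read in every genotype, Fxyd5 falls in the knockouts from about 10 CPM to 1.27 and 1.46 CPM while WT ends at 12.5 CPM, and Atp1b2 is highest in WT on every day.

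The test of this difference in response compared days 3 and 5 with day 0 in each knockout against the same contrast in WT. Days 3 and 5 of a population served as its replicates, so a change between them added to the spread. For Fxyd5 the difference was -3.09 ± 0.61 on the log2 scale in Per1KO and -2.81 ± 0.61 in Per2KO (unadjusted p = 0.00218 and 0.00344). After adjustment over all 13324 genes neither passed (edgeR adjusted p = 0.227 and 0.174). In both contrasts 0% of the tested genes were called, against 1426 and 1783 genes at an unadjusted p under 0.05, and WT has a single day 0 library in them. DESeq2 called Fxyd5 in both (adjusted p = 0.00234 and 0.00575), as did edgeR with no filter on low counts (3.93e-05 and 0.000157), so the call depends on the tool and the filter. DESeq2 called 248 and 476 genes in all.

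The additive test, which fits 1 day effect for the 3 genotypes together, averaged over these unlike courses. It called Fxyd5 lower on day 5 than on day 0 (log2 fold change -2.001 ± 0.64, SE; adjusted p = 0.0358) and not on day 3 (-1.66 ± 0.60, adjusted p = 0.0681). The day 5 call was lost in 7 of the 9 fits that left out 1 library, namely without WT day 3 (adjusted p = 0.0621) or without any of the 6 knockout libraries (0.0698 to 0.185). It was also lost with no filter (-2.02, adjusted p = 0.143), with the knockout libraries thinned (-1.82, 0.117) and in the fit of those days alone (-1.90, 0.12), and DESeq2 called the day 3 fall (-1.68, adjusted p = 0.0108). Fitted on the knockout libraries alone, Fxyd5 fell by 2.21 on the log2 scale by day 3 and by 2.92 by day 5 (adjusted p = 0.000125 and 3.44e-05). Against WT over all days it was not called (-1.90 ± 0.65, adjusted p = 0.0808 in Per1KO; -1.75 ± 0.64, adjusted p = 0.0991 in Per2KO), whereas without the WT day 0 library both differences were called (-2.81 and -2.63, adjusted p = 0.000673 and 0.000817). Leaving out WT day 5 instead gave -1.12 in Per1KO and -0.97 in Per2KO, neither of them called. DESeq2 called both differences with all libraries (adjusted p = 0.00283 and 0.00629).

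Fxyd1 (phospholemman, which restrains the pump until it is phosphorylated; ENSMUSG00000036570, chromosome 7, 31051678 to 31057199, minus strand) was at the edge of detection. It had 0 reads in all 3 day 0 libraries, then 3 and 10 reads on days 3 and 5 in WT, 4 and 8 in Per1KO and 3 and 8 in Per2KO. In CPM the day 5 levels were 2.20 (1.05 to 4.04) in WT, 0.192 (0.0830 to 0.379) in Per1KO and 0.195 (0.0841 to 0.384) in Per2KO, and the WT interval did not overlap the others. Against the floor of 3 counts in the day 0 library, day 5 was at least 5.19-fold higher in WT, 3.16-fold in Per1KO and 3.30-fold in Per2KO. It reached 1 CPM in only 1 library and so failed the filter of 1 CPM in at least 3. With no filter, edgeR called it higher on day 3 (adjusted p = 0.0266) and day 5 (0.00127) and lower in Per1KO (0.0275) and Per2KO (0.0221), on at most 10 reads a library.

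The remaining FXYD genes were scarcely detected. Fxyd2, Fxyd3 and Fxyd7, which are known from kidney, epithelia and brain, had 0 reads in all 9 libraries, and Fxyd4 had at most 8. Among the beta genes, Atp1b4 had at most 1 read in any library. In the annotation Fxyd6 lies beside the undetected Fxyd2 on chromosome 9, Fxyd5, Fxyd7, Fxyd1 and Fxyd3 lie in a row on chromosome 7, and Fxyd4 lies apart on chromosome 6.

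Among the beta subunits, Atp1b3 (ENSMUSG00000032412, chromosome 9, 96332655 to 96364442, minus strand), a widely expressed isoform, was the most abundant per length in every library. Its level was 109, 218 and 197 CPM in WT on days 0, 3 and 5. In Per1KO it was 125, 166 and 198 CPM, and in Per2KO 103, 181 and 199 CPM, from 5218 to 8721 reads in each knockout library. The 3 day 0 libraries lay below all 6 later ones, and the 3 genotypes were within counting error of each other on day 5.

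Atp1b3 was called higher on day 3 (0.74 ± 0.14 on the log2 scale, adjusted p = 0.00513) and on day 5 (0.82 ± 0.14, adjusted p = 0.00202), which is less than a doubling. From day 3 to day 5 the estimate was 0.08 ± 0.14 (adjusted p = 0.844). Against WT it was -0.06 ± 0.14 in Per1KO and -0.12 ± 0.14 in Per2KO (adjusted p = 0.778 and 0.579). Of the 31-base words of its longest transcript, 19.5% also occur in another gene, nearly all in Gm1848, which had 4.02 to 9.67 CPM. How the authors' counting assigned such reads is not given in the sources used here.

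Atp1b1 (ENSMUSG00000026576, chromosome 1, 164437109 to 164458355, minus strand), the beta isoform of most tissues, took different courses in WT and in the knockouts. In WT it rose from 11.2 CPM (8.83 to 13.9) on day 0 to 65.7 CPM (59.1 to 72.8) on day 3 and 98.7 CPM (89.8 to 108) on day 5. Per1KO had 27.5, 33.2 and 67.9 CPM on the same days, and Per2KO 25.5, 33.5 and 47.7 CPM. WT was thus the lowest genotype before differentiation and the highest after it. On day 0 Per1KO was at 2.47 times WT (1.97 to 3.14) and Per2KO at 2.28 times (1.82 to 2.90). On day 3 they were at 0.505 (0.450 to 0.568) and 0.511 (0.455 to 0.574) times WT, and on day 5 at 0.688 (0.622 to 0.761) and 0.483 (0.436 to 0.537) times.

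Within a population, Atp1b1 was 8.85-fold higher on day 5 than on day 0 in WT (6.95 to 11.4), 2.47-fold higher in Per1KO (2.31 to 2.63) and 1.87-fold higher in Per2KO (1.75 to 2.01). The test of the difference in response gave -2.003 ± 0.71 for Per1KO and -2.21 ± 0.71 for Per2KO on the log2 scale (unadjusted p = 0.0297 and 0.0206; edgeR adjusted p = 0.428 and 0.281), and neither passed. The common day effect was called on day 5 (1.59 ± 0.42, adjusted p = 0.0167) and not on day 3 (0.89 ± 0.42, adjusted p = 0.136). That call was lost without the Per1KO day 5 library (1.62, adjusted p = 0.0719) and with no filter on low counts (adjusted p = 0.0895). In the knockout libraries alone it was 1.11 with an adjusted p of 0.000702.

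Against WT over all days Atp1b1 was not called (-0.24 ± 0.42, adjusted p = 0.714 in Per1KO; -0.44 ± 0.42, adjusted p = 0.496 in Per2KO). Both were called once the WT day 0 library, the only WT library below the knockouts, was left out (-0.78, adjusted p = 0.00919, and -0.99, adjusted p = 0.00368). Leaving out WT day 3 instead gave 0.11 in Per1KO and -0.065 in Per2KO, neither of them called. The exons of Atp1b1 overlap those of Nme7 on the opposite strand over 18.7% of their length, and without strand their reads cannot be told apart there. Nme7 had 12.8 to 23.0 CPM and fell by 0.60 ± 0.14 on the log2 scale by day 5 (adjusted p = 0.00992), the opposite direction to Atp1b1.

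Atp1b2 (ENSMUSG00000041329, chromosome 11, 69599736 to 69605942, minus strand), known as the adhesion molecule on glia and as a beta isoform of fast muscle fibres, was the rarest of the 3. WT had 1.84, 5.66 and 11.2 CPM on days 0, 3 and 5 from 13, 31 and 51 reads. Per1KO had 0.365, 0.994 and 2.09 CPM from 18, 48 and 87 reads, and Per2KO 0.492, 1.22 and 1.49 CPM from 25, 59 and 61 reads. WT was the highest genotype on each day, with intervals that overlapped neither knockout of the same day. The WT level was 3.73-fold to 7.55-fold that of the knockout of the same day over the 6 pairs.

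It was the 1 member called in the knockouts, at -2.43 ± 0.28 in Per1KO (adjusted p = 0.000969) and -2.39 ± 0.28 in Per2KO (adjusted p = 0.0011) on the log2 scale. Both comparisons use the same 3 WT libraries. Atp1b2 was also called higher on day 3 (1.43 ± 0.28, adjusted p = 0.00707) and day 5 (2.22 ± 0.28, adjusted p = 0.000542). The day 3 call was lost without the Per2KO day 3 library (1.31, adjusted p = 0.0516) and when the knockout libraries were thinned to the mean WT depth (1.46, adjusted p = 0.108). The day 5 to day 0 ratio was 6.11 in WT (3.27 to 12.2), 5.73 in Per1KO (3.42 to 10.1) and 3.02 in Per2KO (1.87 to 5.02), with intervals that overlapped. No 31-base word of its longest transcript occurs in another annotated gene.

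Counted together, 2 of the 4 members tested for day effects were higher on day 3 (Atp1b2 and Atp1b3) and 0 were lower, where 35% of all tested genes were called and 18.1% were called higher. On day 5 all 4 were called, 3 higher (Atp1b1, Atp1b2 and Atp1b3) and 1 lower (Fxyd5), where 46.1% of all tested genes were called, 23.2% higher and 22.9% lower. Their median log2 fold change on day 5 was 1.21, against -0.01 over all tested genes. Between days 3 and 5, 0 of 4 were called, as were 1.79% of all genes, and the unadjusted p of Atp1b2 was 0.0152. In the knockouts 1 of 5 was lower in each, Atp1b2, where 19.3% of all genes were called in Per1KO (10.1% lower) and 19.9% in Per2KO (10.6% lower). Between Per1KO and Per2KO 0 of 5 were called, as were 0% of all genes, with 88 genes at an unadjusted p under 0.05 and 1 gene called by DESeq2. With 4 or 5 members these counts set nothing apart from the background.

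Day by day, single libraries of a knockout and WT were also compared for members with at least 1 CPM in either of the pair. On day 0, 2 of 4 such members differed by at least 2-fold in each knockout, Atp1b1 upward and Atp1b2 downward, where 16.8% of all genes at that level did so in Per1KO and 17.5% in Per2KO. On day 3, 3 of 5 were at least 2-fold lower in each knockout (Fxyd5, Fxyd6 and Atp1b2), where 17.8% and 18.9% of all genes differed as much in either direction. On day 5, 3 of 6 were lower in Per1KO (Fxyd1, Fxyd5 and Atp1b2) and 4 of 6 in Per2KO (also Atp1b1). Of all genes, 20.6% and 20.8% differed as much in either direction. Fxyd1 on day 5 and Atp1b2 on day 0 reached 1 CPM in WT alone, as did Atp1b2 on day 3 in the pair with Per1KO (0.994 CPM). In those pairs the rule could count them only as lower. Which members stood apart thus changed between days, with Atp1b2 lower in the knockouts throughout. These pairs have no replicates, and the comparisons of a day share the WT library.

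**Figure D2:**
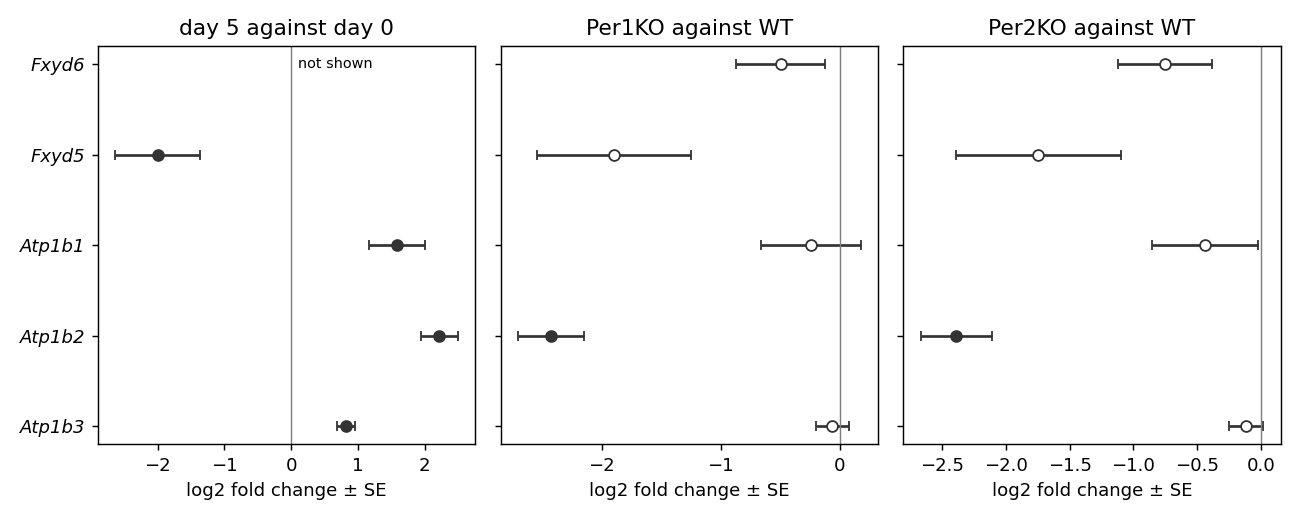
Log2 fold changes with their standard errors from the additive test for the 5 tested members: day 5 against day 0 and each knockout against WT, with filled points for adjusted p under 0.05. Fxyd6 is not shown for the day effect, for which it was chosen. Atp1b2 is the point called lower in both knockouts, and Fxyd5 alone lies below 0 on day 5.

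The direct comparison of the knockouts gave small estimates with limited precision. Per1KO against Per2KO was 0.25 ± 0.34 for Fxyd6, -0.15 ± 0.57 for Fxyd5, 0.20 ± 0.40 for Atp1b1, -0.04 ± 0.26 for Atp1b2 and 0.05 ± 0.13 for Atp1b3 on the log2 scale, each with an adjusted p of 1. By day, the day 5 libraries differed beyond counting error for Fxyd6 (1.35-fold higher in Per1KO, 1.26 to 1.44) and Atp1b1 (1.42-fold, 1.34 to 1.51). On day 3 the same ratios were 0.972 (0.828 to 1.14) and 0.989 (0.923 to 1.06), and on day 0 that of Atp1b1 was 1.08 (1.001 to 1.17), while Fxyd6 had at most 1 read. Atp1b2 was 1.41-fold higher in Per1KO on day 5 (1.002 to 1.98), with intervals that included 1 on the earlier days. Atp1b3 was 1.21-fold higher in Per1KO on day 0 (1.17 to 1.26), 0.920 times Per2KO on day 3 (0.892 to 0.948) and 0.992 times on day 5 (0.962 to 1.02). For Fxyd5 the interval included 1 on each day. Each is a pair of single libraries.

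**Figure D3:**
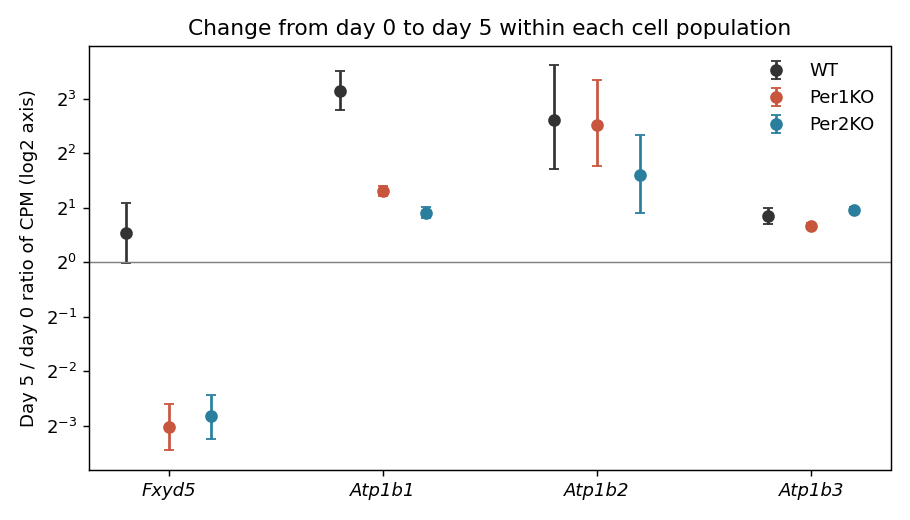
Ratio of the day 5 to the day 0 level (log2 axis) within each population for Fxyd5 and the beta subunits, with exact 95% intervals for counting error. Fxyd5 lies at 0.124 and 0.141 in the knockouts and at 1.46 in WT, Atp1b1 at 8.85 in WT and at 2.47 and 1.87 in the knockouts, and Atp1b3 between 1.59 and 1.94 in all 3.

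Levels can be set side by side between genes only per length, which RPKM does by dividing CPM by the exon length in kilobases. On that scale the sum of the beta subunits went from 49.7 RPKM on day 0 to 117.1 RPKM on day 5 in WT, from 61.2 to 105.4 RPKM in Per1KO and from 51.4 to 99.3 RPKM in Per2KO. This beta sum was 91.8%, 85.3% and 83.7% Atp1b3 on day 0 and 70.3%, 78.6% and 84.0% on day 5. Atp1b1 held 7.29% of the beta sum in WT on day 0 and 27.4% on day 5, while in Per2KO it held 16.1% and 15.6%. Atp1b2 held at most 2.34% of the beta sum, in WT on day 5.

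The FXYD sum changed its leading gene, which the choice of Fxyd6 for its rise favoured. In undifferentiated WT cells Fxyd5 was 95.1% of it, and in each knockout 96.9%. By day 5 Fxyd6 was 71.7% of it in WT, 96.8% in Per1KO and 95.3% in Per2KO. Fxyd5 was still at 20.6% in WT but at 2.36% in Per1KO. In WT the Fxyd5 level itself did not fall, at 2.06 RPKM on day 0 and 2.99 RPKM on day 5. Fxyd1 reached 6.94% in WT on day 5 and 0.683% in Per1KO (12.8% and 1.28% when levels were divided by the longest transcript in place of all exons, a setting added after the data were seen). The summed FXYD level itself went from 2.16 to 14.5 RPKM in WT, from 2.53 to 12.9 RPKM in Per1KO and from 2.56 to 9.68 RPKM in Per2KO between days 0 and 5. Divided by the longest transcript, the day 5 sums were 25.7, 22.4 and 16.8 RPKM, and the day 0 sums 3.05, 3.56 and 3.59 RPKM, in the same order.

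**Figure D4:**
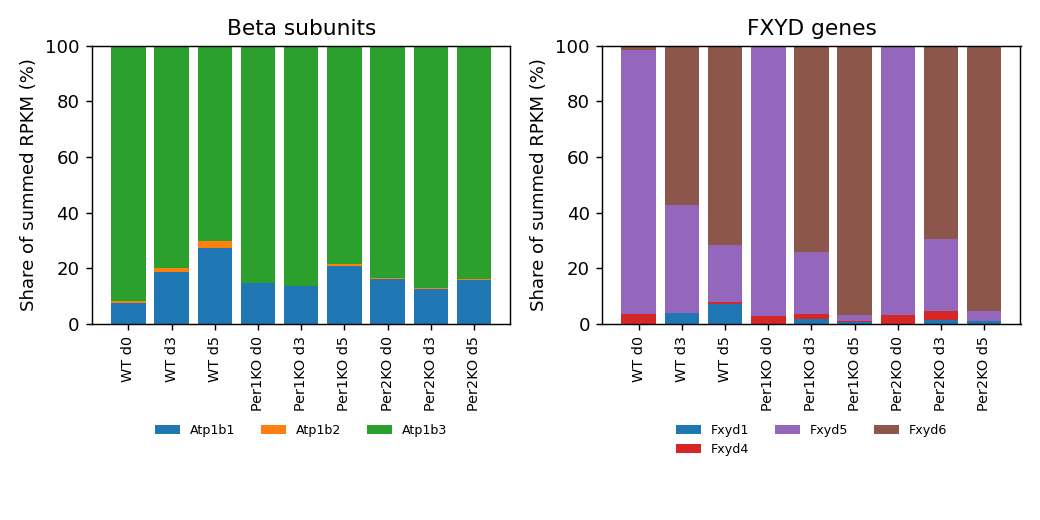
Share of the summed RPKM within the beta subunits and within the FXYD genes in each of the 9 libraries (d0, d3 and d5 are days 0, 3 and 5). Atp1b1 reaches 27.4% of the beta level in WT, and Fxyd6, chosen for its rise, holds the largest FXYD share from day 3.

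Across the libraries the members did not share 1 pattern. Over the 6 knockout libraries, log2 CPM of Fxyd6 and Fxyd5 had a Pearson correlation of -0.99, and over all 9 libraries of -0.53. Fxyd6 and Atp1b3 had 0.97 and 0.95, and Fxyd6 and Atp1b1 0.86 and 0.80, over the same 6 and 9. These values are descriptions, since the libraries share populations and days and most of the spread is that between day 0 and later days.

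The protein-coding genes most like each member over the 9 libraries were found among those with a mean of at least 10 CPM. For Fxyd6 they were Cd36 (r = 0.999), the fatty acid receptor, Porcn and Ppp1r12b (both 0.996). Cd36 went from 0.282 to 35.6 CPM in WT between days 0 and 5 and from 0.0811 to 39.8 CPM in Per1KO, almost the same range as Fxyd6. For Fxyd5 they were Gja1 (0.985), which encodes the gap junction protein connexin 43, Mri1 and Ust. Gja1 was at 196, 165 and 200 CPM in WT on days 0, 3 and 5 but at 190, 90.8 and 71.2 CPM in Per1KO. For Atp1b1 they were Ivns1abp (0.985), Pex13 and Intu; for Atp1b2 Ctif (0.988), Dnajb2 and Slc7a2, a cationic amino acid transporter; and for Atp1b3 Slc11a2 (0.991), a metal ion transporter, Cryab, a small heat shock protein of muscle, and Bag1. Over the 6 knockout libraries alone the closest genes were others for every member. They included Fbxo40, Ndrg4 and Tmem242 for Fxyd6, Tdp1, Uba6 and Tbc1d9 for Fxyd5, Hras, Cacnb3 and Ppip5k1 for Atp1b1, Itga6 and Rbm18 for Atp1b2, and Capn7, Rab11b and Golph3l for Atp1b3, with r from 0.9864 to 0.9999.

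Other ion pumps and transporters give the setting of these changes. Of all tested genes, 23.2% were called higher and 22.9% lower on day 5. Of 6 tested calcium pump genes and regulators, 3 were higher on day 5 and 0 lower, with Atp2a1, the fast-fibre calcium pump of the sarcoplasmic reticulum, showing the largest rise (5.99 ± 0.58, adjusted p = 0.000182) from 45.2 to 933 CPM in WT. The median of the 6 was 0.96, and the exons of Atp2a1 overlap those of Rabep2 on the opposite strand over 21.9% of their length. The lowest estimate was that of Atp2b1 (-0.57 ± 0.25, adjusted p = 0.102). Atp2a1 and Atp2b4, a plasma membrane calcium pump, were lower in both knockouts (Atp2b4 at -1.29 ± 0.21, adjusted p = 0.00465, in Per1KO and -1.33 ± 0.21, adjusted p = 0.00394, in Per2KO).

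Among muscle ion channel genes, Scn4a, the sodium channel of the muscle action potential, went from 7 reads on day 0 to 82.5 CPM on day 5 in WT, from 11 reads to 36.1 CPM in Per1KO and from 3 reads to 23.3 CPM in Per2KO. Its log2 fold change on day 5 was 7.35 ± 0.35 (adjusted p = 8.28e-06), and it was lower in both knockouts (-1.21 ± 0.28, adjusted p = 0.0215, in Per1KO and -1.72 ± 0.28, adjusted p = 0.00465, in Per2KO). Of 15 other sodium transporters, 6 were higher and 2 lower on day 5, where 23.2% of all tested genes were higher and 22.9% lower. The median of the 15 was 0.37. They ranged from Slc24a3, a potassium-dependent sodium-calcium exchanger (2.18 ± 0.30, adjusted p = 0.000842), to Slc20a1, a sodium-phosphate cotransporter (-1.56 ± 0.22, adjusted p = 0.000973). Slc24a3 was higher in both knockouts (3.01 ± 0.32, adjusted p = 0.000671, and 3.22 ± 0.32, adjusted p = 0.000488).

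Of 7 tested pump-associated genes, 1 was higher and 1 lower on day 5, where 23.2% of all tested genes were higher and 22.9% lower. The median of the 7 was -0.25, and these counts set nothing apart from the background. Nkain2, named for its interaction with the sodium pump, rose by 3.22 ± 0.25 (adjusted p = 5.66e-05), and the ubiquitin ligase Nedd4l fell by 0.94 ± 0.12 (adjusted p = 0.000703). Both were higher in the 2 knockouts than in WT, Nkain2 by 1.81 ± 0.32 and 1.91 ± 0.32 (edgeR adjusted p = 0.0075 and 0.00552). WT had only 1 to 5 reads of Nkain2, which is under 1 CPM. Nkain2 thus passed the filter through knockout libraries alone, and the comparison could find it only higher in the 2 knockouts. Agrn, which encodes agrin, was lower in both (-0.66 ± 0.15 and -0.65 ± 0.15, adjusted p = 0.0223 and 0.0229). In bulk RNA of this kind, fewer differentiated cells and less RNA per cell cannot be told apart, and the summed muscle markers went from 21132 CPM on day 3 to 22078 CPM on day 5 in WT, from 9673 to 15687 CPM in Per1KO and from 9011 to 12850 CPM in Per2KO. Of the 8 markers, Myog alone was called lower in the knockouts (-2.80 ± 0.72, adjusted p = 0.0325, in Per1KO and -3.18 ± 0.73, adjusted p = 0.0217, in Per2KO). Of all tested genes, 10.1% were called lower in Per1KO and 10.6% in Per2KO. The estimates of all 8 markers lay below 0, from -3.11 to -0.398 (median -1.62) in Per1KO and from -3.46 to -0.545 (median -1.97) in Per2KO. The part of the markers in the differences between genotypes was not tested.

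**Figure D5:**
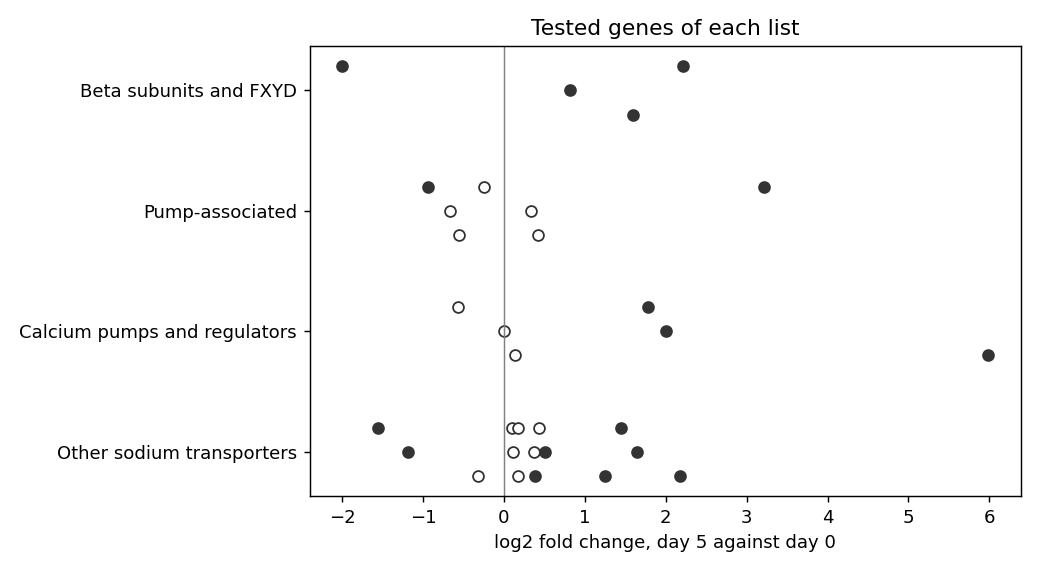
Log2 fold change on day 5 against day 0 of every tested gene of 4 lists, with filled points for adjusted p under 0.05. Among the beta subunits and FXYD genes (without Fxyd6, whose rise chose it) Fxyd5 is the only point below 0, and the points farthest right are Atp2a1 at 5.99 and Nkain2 at 3.22.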

How the data were processed

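The deposited table holds whole-number read counts per Ensembl gene for the 9 libraries, used as deposited by the authors; 47224 of its 47729 genes matched a symbol. Libraries were poly(A)-selected, per the labels' protocols. HISAT2 2.1.0, CASAVA 1.8 and build mm10 (GRCm38) are named in the submitters' processing notes; the counting program, its annotation and its use of strand are not given in the sources used here. Genes reaching 1 CPM in 3 or more libraries were tested in R 4.3.3 with edgeR 4.0.16 (library sizes scaled by TMM, the trimmed mean of M values; quasi-likelihood F-test, Benjamini-Hochberg over 13324 genes, threshold 0.05), with genotype and day as terms (4 residual degrees of freedom), or with genotype by day 0 against later days (3). With 1 library for each genotype and day, p-values measure only the spread between these libraries. In the additive fit that spread includes any difference in day course between the genotypes. In the response fit it includes any change from day 3 to day 5 within a genotype. The SE given with an edgeR log2 fold change is its absolute value divided by the square root of the F statistic. Log2 levels used a prior count of 2. Ratios of single libraries carry exact conditional binomial 95% intervals. Lengths and positions are from GENCODE M21. The fitting code was also run on simulated counts with known changes in Per1KO. These held no day effect common to the genotypes, so they do not show how the fits behave on these data. DESeq2 1.42.0 and the other settings tried are in the closing section.

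The 6 genes, the gene lists and the tests were chosen with earlier results of these data known. Besides the 6, the genes named are all other beta and FXYD genes, the largest rise and fall on day 5 in each other list and up to 4 of its genes called in both knockouts, and the 3 genes with the highest Pearson correlation to each member. Some genes that this rule takes in are not reported here.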

Additional observations from a re-analysis of the deposited data

How the results depend on the processing

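No paired analysis was possible because each group has 1 library, so groups share fewer than 2 replicate numbers; this concerns replicate numbers only, since the day term of the additive fit already compares genotypes within days. Genes called numbered 4664 (day 3), 6149 (day 5), 238 (day 5 against day 3), 2575 (Per1KO), 2652 (Per2KO) and 0 (knockouts against each other, and both tests of the response). On day 3 the fit of those days alone called 2977 and the knockouts alone 7479, and thinning left 1 member called. For day 5 against day 3, no filter gave 370, DESeq2 733, the fit of those days 573 and the knockouts alone 1355, the last 2 with 1 member, Atp1b1. Protein-coding genes alone gave 1607 for Per1KO and 1719 for Per2KO, the fits of 2 genotypes 1362 and 1229, and no filter (Fxyd1 added) and DESeq2 (Fxyd5 added) each 2 members in both. Between the knockouts no filter and DESeq2 each called 1 gene. For the response, no filter gave 315 in Per1KO and 567 in Per2KO and DESeq2 248 and 476, each with 1 member, Fxyd5. Leaving out each library gave 2157 to 6246 genes and 1 to 3 members on day 3, 3713 to 7351 and 2 to 4 on day 5, 0 to 735 and 0 to 1 between days 3 and 5, 1167 to 3461 and 1 to 3 in Per1KO, 1157 to 3594 and 1 to 3 in Per2KO, and 0 and 0 elsewhere; the response could not be fitted without a day 0 library it needs. Some estimates changed sign, and not all of these were near 0 in the main fit. Atp1b3 in Per1KO became 0.017 with no filter. Without 1 library, estimates ranged from -1.12 to 0.012 for Fxyd5 and from -0.041 to 0.20 for Atp1b3 between days 3 and 5; from -1.20 to 0.10 for Fxyd6, -0.78 to 0.11 for Atp1b1 and -0.19 to 0.063 for Atp1b3 in Per1KO; from -0.19 to 0.0054 for Atp1b3 in Per2KO; and in the response from -0.75 to 0.44 for Atp1b2 in Per1KO and from -0.11 to 0.034 for Atp1b3 in Per2KO. The causes were not tested. The length of the longest transcript in place of all exons was a setting added after the data were seen. In WT on day 5 it moved Fxyd5 from 20.6% to 16.3% and Fxyd6 from 71.7% to 70.2% of the FXYD sum. Atp1b1 there stayed at 27.4% of the beta sum. No counting interval was computed for the shares. Counts of 0 to 13 in WT on day 0 limit what can be said of Fxyd1, Fxyd6 and Atp1b2 there.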
